A study of Mus musculus with 12 samples.

Results

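Chromatin accessibility was examined at the regions that lie far from protein-coding genes in cultured mouse CD4+ T cells. A region was included when no protein-coding gene model of the GRCm38.p6 annotation (the mm10 build) came within 100 kb of it. The rule uses position only, and it selected 2350 of the 48443 accessible regions (peaks) counted by ATAC-seq, or 4.85% of them. They are called distal peaks here. ATAC-seq marks open chromatin with the transposase Tn5, and a peak's level is given as CPM, its count per 1000000 counts of the library.

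Naive CD4+ T cells (CD44- CD62L+ CD25-) came from the spleens of wild-type (WT) C57BL/6 animals and were activated on plates coated with anti-CD3 and anti-CD28 (each at 1 µg/ml). The cultures were steered to non-pathogenic Th17 cells (Th17n) by IL-6 at 25 ng/ml together with TGF-beta1 at 2 ng/ml, and to induced regulatory T cells (iTreg) by TGF-beta1 at 2 ng/ml without IL-6. Each culture also received 100 µM DFMO (difluoromethylornithine, which blocks ornithine decarboxylase, the first enzyme of polyamine synthesis) or vehicle, and live cells were sorted after 68 h. The 4 groups (Th17n vehicle, Th17n DFMO, iTreg vehicle, iTreg DFMO) hold 3 libraries each, 1 from each of the same 3 animals, which gives 12 libraries. These are cells polarised in a dish and not Th17 or regulatory T cells taken from tissue.

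Distal open regions are often enhancers, stretches of DNA that bind transcription factors and act on a promoter across a long distance through looping of the chromatin. In T cells such elements are known around Myc, Id2, Satb1, Gata3 and other regulators, where gene-poor DNA holds many of them, and several lie within long non-coding RNA (lncRNA) genes. Other distal open regions are promoters of lncRNA genes or binding sites of CTCF, the protein that anchors chromatin loops. Which gene a distal peak acts on cannot be read from its position, so each peak below is placed by the nearest protein-coding gene on each side. In a culture of many cells, fewer cells with a region open and less opening in each cell cannot be told apart.

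Sequence was at hand for the distal peaks that overlap a promoter window of an annotated lncRNA gene. These RefSeq windows of GRCm38.p6, each 300 bp long, run from 250 bp upstream to 50 bp downstream of the gene start. They overlapped 60 distal peaks at 71 windows of 63 lncRNA genes. The overlap could be as short as 11 bp, as at Gm13481, so some of these peaks miss the start itself. Windows are shown for a pair of these peaks that are also named below for their level at a non-coding gene. Each window shown lies wholly in its peak, and both peaks differed between groups. Another such peak, at LOC115487176, is not shown, though its mean of 66.5 CPM was above the 65.7 CPM at Gm41331. The start of Gm26901 (minus strand, chr1:7398047-7398346) lies in a peak that rose with DFMO in iTreg, and the start of Gm41331 (plus strand, chr15:60141576-60141875) lies in a peak that was higher in iTreg. Capitals mark motif letters found by a search of both strands: GCCCCCT, the reverse complement of the CTCF core AGGGGGC, in Gm26901, and in Gm41331 the ETS motif GGAAGT and 3 copies of ACCACA, the reverse complement of the RUNX motif TGTGGT.
Gm26901: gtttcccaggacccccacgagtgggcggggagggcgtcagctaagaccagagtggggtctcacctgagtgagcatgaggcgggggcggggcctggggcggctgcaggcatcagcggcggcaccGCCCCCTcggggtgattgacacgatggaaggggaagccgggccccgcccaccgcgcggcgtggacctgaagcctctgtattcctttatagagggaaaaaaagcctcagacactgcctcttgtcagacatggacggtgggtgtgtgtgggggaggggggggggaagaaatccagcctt
Gm41331: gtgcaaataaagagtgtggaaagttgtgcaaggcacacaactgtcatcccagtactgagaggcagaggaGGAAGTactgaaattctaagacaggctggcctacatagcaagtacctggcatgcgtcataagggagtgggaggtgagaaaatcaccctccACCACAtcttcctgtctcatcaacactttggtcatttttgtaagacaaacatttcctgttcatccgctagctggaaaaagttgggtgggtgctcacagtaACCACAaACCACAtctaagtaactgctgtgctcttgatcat
A match of letters is a description of the sequence and not a binding site. Over all 71 windows, parts of which lie outside the peaks, 23.9% held the AP-1 letters TGANTCA (N is any base). Of all 32851 promoter windows, 7.81% held them. The RUNX letters TGTGGT stood in 25.4% against 16.8%. The ETS letters GGAAGT stood in 26.8% against 23.8%, and the CTCF core in 9.86% against 10.6%. The median GC content was 50.7% at distal peaks and 52.7% over all windows.

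Distal peaks lay a median of 176 kb from the nearest protein-coding gene model. Of the 2350, 1385 lay at 100 to 200 kb, 781 at 200 to 500 kb and 146 farther than 500 kb. The farthest peak, chr1:101902303-101903001, was 1412 kb from Cntnap5b, a neuronal adhesion gene, and held a mean of 10.1 CPM over the 12 libraries. Another 38 distal peaks lay on 8 unplaced or random contigs that carry no gene model in the annotation, 24 of them on the contig JH584304, so these met the rule through the lack of a model. Distal peaks made up 10.9% of the peaks of chromosome 13 and 9.68% of chromosome 12, but 1.20% of the peaks of gene-dense chromosome 11 and 1.30% of chromosome 7. None of the 9 peaks on chromosome Y was distal.

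The distal peaks were narrower and weaker than the 46093 other peaks. Their median width was 404 bp against 485 bp, and their median level was 6.32 CPM against 10.2 CPM. Per kb of width the medians were 16.2 and 22.3 CPM. A non-coding gene or pseudogene lay within 1 kb of 757 distal peaks (32.2%). Of all distal peaks, 624 overlapped a lncRNA model, and 34 lay in Igh, the immunoglobulin heavy chain locus. They also came in runs: 1167 of them stood in 435 groups whose members were at most 10 kb apart, and 1183 stood alone.

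The groups with the most distal peaks were 13 peaks on JH584304 (chrUn_JH584304:24290-44289) and 11 between Tnfaip3, an inhibitor of NF-kB signalling, and Olig3 (chr10:19165650-19227278). Another 10 lay between Smim20 and Rbpj, the nuclear effector of Notch signalling (chr5:53393763-53426997). A group of 9 lay near Bcl2l11, which encodes the pro-apoptotic BIM, over the lncRNA Morrbid (chr2:128428009-128470716). A group of 8 lay over the lncRNA Firre (chrX:50590820-50623365).

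The libraries held 1020937 to 6496550 counts, and libraries of 1 group differed by more than counting error (chi-square per degree of freedom 1.99 to 2.81). All 3 CD4 T cell genes checked (Cd3e, Cd4, Cd28) had peaks in every group, and their summed level ran from 345 to 353 CPM in Th17n vehicle and from 208 to 211 CPM in iTreg vehicle. Ms4a1, Cd8a and Ncr1, which mark B cells, cytotoxic T cells and NK cells, had 0 peaks. Pax5, a B cell factor, had 3 peaks (18.6 to 26.4 CPM in sum in Th17n vehicle and 30.7 to 50.3 in iTreg vehicle). Klrb1c, the NK cell receptor NK1.1, had 4 peaks, which summed to 60.8 to 73.5 CPM in Th17n vehicle, 52.7 to 81.8 in Th17n DFMO, 75.4 to 92.9 in iTreg vehicle and 100.2 to 106 in iTreg DFMO, so that the iTreg libraries with DFMO lay above those with vehicle. The summed level of the myeloid genes Spi1, Lyz2 and Csf1r ran from 26.2 to 31.7 CPM in Th17n vehicle and 24.7 to 39.4 CPM in iTreg vehicle. The only peak assigned to Foxp3, the regulatory T cell factor, was higher in Th17n vehicle (mean 16.1 CPM) than in iTreg vehicle (4.27 CPM), opposite to what the cell names would lead one to look for. Any part of other cells in the results below was not tested.

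Distal peaks took a larger share of the counts in Th17n than in iTreg. In Th17n vehicle they held 2.96%, 2.87% and 2.95% of the counts of animals 1, 2 and 3, and in Th17n DFMO 2.86%, 3.08% and 2.90%. In iTreg vehicle they held 2.13%, 2.09% and 2.27%, and in iTreg DFMO 2.24%, 2.32% and 2.26%. All 6 Th17n libraries lay above all 6 iTreg libraries, and the groups with and without DFMO overlapped in both lineages. The means were 2.93% ± 0.051 (SD, n = 3) in Th17n vehicle and 2.16% ± 0.096 in iTreg vehicle.

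A share of all counts moves with the counts at gene ends, which took more of the reads in iTreg. With peaks within 1 kb of a gene end left out of the total, distal peaks held 5.43% ± 0.096 (SD, n = 3) of the counts in Th17n vehicle, 5.70% ± 0.137 in Th17n DFMO, 4.83% ± 0.131 in iTreg vehicle and 5.23% ± 0.033 in iTreg DFMO. Th17n libraries still lay above the iTreg libraries. The DFMO libraries then lay above the vehicle libraries in both lineages, at 5.58% to 5.85% against 5.34% to 5.53% in Th17n and at 5.21% to 5.27% against 4.68% to 4.94% in iTreg.

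**Figure D1:**
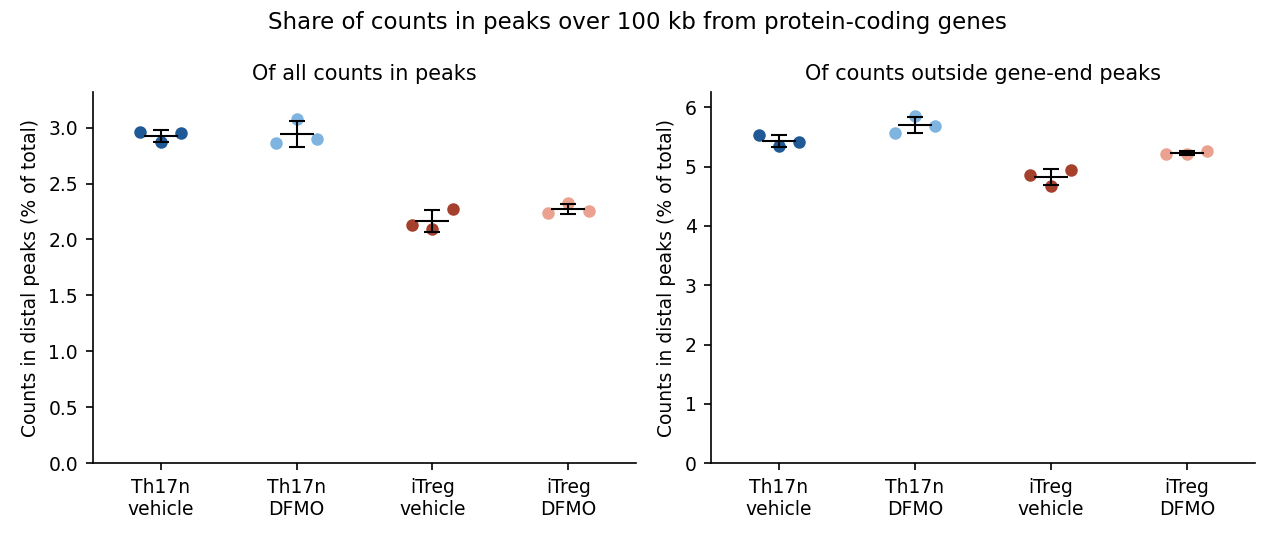
Percent of each library's counts that fell in distal peaks, by group, with 1 point per library and the mean ± SD of 3 libraries. Of all counts (left), Th17n libraries lay at 2.86% to 3.08% and iTreg libraries at 2.09% to 2.32%. Without counts at gene ends (right), the DFMO libraries lay above the vehicle libraries of the same lineage.

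Each peak was tested with edgeR's quasi-likelihood test over all 43726 peaks that passed a filter on low counts, and a call is a Benjamini-Hochberg adjusted p under 0.05. Of the distal peaks 1971 were tested and 379 were too low. A peak that is open in 1 group only passes the filter through that group, so the counts that follow describe the tested peaks alone.

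In vehicle, Th17n and iTreg differed at 1063 of the 1971 tested distal peaks (53.9%), against 44.6% of all tested peaks. Accessibility was higher in Th17n at 767 and lower at 296, where 25.2% and 19.3% of all tested peaks were higher and lower. The median log2 difference (Th17n against iTreg) was 0.46 over distal peaks and -0.07 over all tested peaks. All tested peaks include those at gene ends, which took more of the reads in iTreg. No call share was made without them, so how far other peaks away from gene ends share this lean was not tested. With DFMO in both lineages, 715 distal peaks were higher and 225 lower in Th17n (47.7%, against 37.2% of all tested peaks), and the medians were 0.51 and -0.00. Both contrasts called 690 distal peaks, of which 538 were higher in Th17n in both and 145 lower in both. That is 64.9% of the calls in vehicle and 73.4% of those with DFMO, against 59.7% and 71.5% over all tested peaks. These contrasts share no library.

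Among the calls above iTreg with the smallest adjusted p were peaks beside regulators of T cell fate. Id2 encodes an inhibitor of E-protein transcription factors, and chr12:25683115-25684172 lies 587 kb from it on the way to Rnf144a. This peak held 45.1, 50.2 and 57.8 CPM in Th17n vehicle and 1.02, 0.645 and 3.64 CPM in iTreg vehicle. With DFMO it held 36.4, 52.8 and 40.4 CPM in Th17n and 3.52, 0.474 and 1.76 CPM in iTreg. Every Th17n library was above every iTreg library, whatever the treatment. The log2 difference was 4.62 ± 0.35 (SE) in vehicle (edgeR adjusted p = 5.2e-15) and 4.48 ± 0.39 with DFMO (edgeR adjusted p = 1.3e-12).

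The peak chr9:116293838-116294757 lies 118 kb from Tgfbr2, the signalling receptor for TGF-beta. It held 120.5, 114 and 133 CPM in Th17n vehicle, 111, 116 and 95.7 in Th17n DFMO, 35.3, 30.1 and 26.5 in iTreg vehicle and 51.1, 48.4 and 46.0 in iTreg DFMO. Th17n libraries were all higher, and within iTreg the DFMO libraries were above the vehicle libraries. The lineage difference was 1.96 ± 0.14 in vehicle (edgeR adjusted p = 2.8e-15) and 1.10 ± 0.14 with DFMO (edgeR adjusted p = 3.7e-08).

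Satb1 encodes a chromatin organiser of developing T cells. The peak chr17:51945556-51946499, 112 kb from it and in the lncRNA Gm20098, held 50.9, 54.6 and 58.7 CPM in Th17n vehicle against 3.58, 2.58 and 6.67 in iTreg vehicle. The Th17n values did not overlap the iTreg values, and the difference was 3.55 ± 0.28 (edgeR adjusted p = 3.4e-14). Zeb2 encodes a repressor of the zinc finger homeobox family and Acvr2a an activin receptor. Between them, chr2:48409563-48410053 in the lncRNA Gm13481 held 56.8, 50.8 and 54.3 CPM in Th17n vehicle and 3.58, 1.5 and 6.06 in iTreg vehicle (3.74 ± 0.30, edgeR adjusted p = 2.8e-14). The peak chr1:154990308-154991166, between the calcium channel gene Cacna1e and the immediate early gene Ier5, held 49.0, 55.0 and 62.0 CPM against 2.05, 4.30 and 2.43 (4.09 ± 0.29, edgeR adjusted p = 1.2e-15). The lineages overlapped at neither peak.

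Fewer distal peaks were higher in iTreg, and some of these were at or near 0 in Th17n vehicle. The peak chr3:60819700-60820530 lies between Mbnl1, a splicing regulator, and P2ry1, a receptor for extracellular nucleotides. It held 0, 0.770 and 0.881 CPM in Th17n vehicle and 41.4, 12.5 and 14.4 CPM in iTreg vehicle, where animal 1 stood well above the other two. DFMO libraries held more in both lineages, with 4.22, 8.65 and 13.7 CPM in Th17n and 75.1, 31.3 and 70.6 CPM in iTreg. The lineage difference in vehicle was -4.82 ± 0.54 (edgeR adjusted p = 4.5e-10). The DFMO change was 3.43 ± 0.63 in Th17n (edgeR adjusted p = 0.00032) and 1.52 ± 0.31 in iTreg (edgeR adjusted p = 0.001), and the call in iTreg was lost with DESeq2 (adjusted p = 0.14).

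A peak between Rad51b, a recombination repair gene, and Zfp36l1, a regulator of mRNA decay (chr12:79959892-79960606), held 0.979, 2.00 and 1.76 CPM in Th17n vehicle and 24.5, 16.6 and 21.6 in iTreg vehicle. The groups did not overlap (-3.55 ± 0.39, edgeR adjusted p = 3.1e-10), and with DFMO the values were 1.62, 3.89 and 1.30 in Th17n and 25.2, 18.0 and 20.8 in iTreg. A peak 213 kb from Rasa1, which encodes a RAS GTPase activator (chr13:85502713-85503418), held 3.92, 3.39 and 4.11 CPM in Th17n vehicle and 35.8, 21.7 and 21.8 in iTreg vehicle (-2.84 ± 0.34, edgeR adjusted p = 2e-09).

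**Figure D2:**
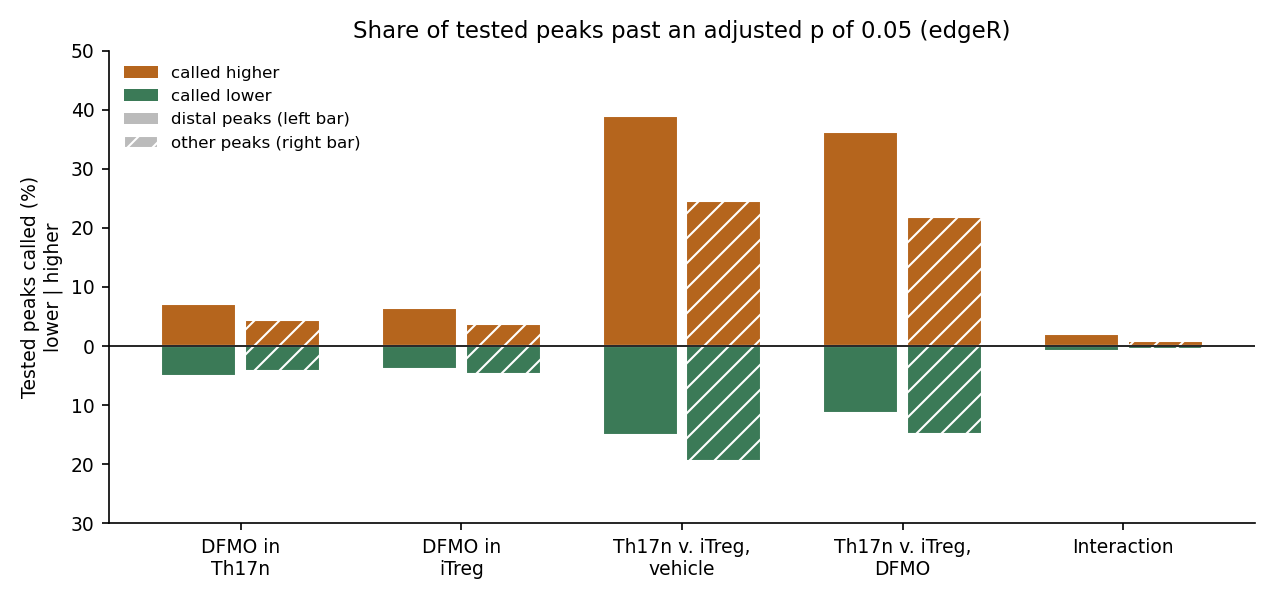
Percent of tested peaks called higher or lower (edgeR adjusted p under 0.05) among distal peaks and among all other peaks, for the 5 contrasts. Th17n was above iTreg at 38.9% of tested distal peaks in vehicle against 24.6% of the other peaks, which include those at gene ends.

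In Th17n, DFMO changed 241 of the 1971 tested distal peaks (12.2%, against 8.78% of all tested peaks). Accessibility rose at 140 and fell at 101, where 4.50% of all tested peaks rose and 4.28% fell. Among those that rose, the first peak near Ptger4 and the peaks near Setbp1 and Klf6, described next, were lower in Th17n vehicle than in every iTreg library. Not every peak that rose was so, and peaks picked for a rise tend to be low in Th17n vehicle. These counts rest on all libraries: 69 rose and 46 fell without Th17n vehicle animal 2, 70 and 42 without Th17n vehicle animal 3, 78 and 48 without Th17n DFMO animal 1, and 89 and 63 without Th17n DFMO animal 3.

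Ptger4 encodes the prostaglandin E2 receptor EP4, and Dab2 an endocytic adaptor. Between them, 514 kb from Ptger4, chr15:5758523-5759218 held 2.94, 7.70 and 7.93 CPM in Th17n vehicle and 53.6, 33.3 and 49.5 CPM in Th17n DFMO. In iTreg it held 33.8, 36.3 and 35.8 CPM with vehicle and 18.8, 43.7 and 25.2 CPM with DFMO. The Th17n DFMO values lay in or above the range of the iTreg libraries, and the Th17n vehicle values lay below all others. The change in Th17n was 2.69 ± 0.28 (edgeR adjusted p = 7.7e-09), and in iTreg the log2 difference was -0.25 ± 0.24 (edgeR adjusted p = 0.58).

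The same pattern stood at chr18:79297612-79298381, 187 kb from Setbp1, which encodes a SET-binding nuclear protein. It held 9.79, 7.85 and 4.40 CPM in Th17n vehicle, 51.0, 42.8 and 41.7 in Th17n DFMO, 76.7, 54.2 and 48.9 in iTreg vehicle and 91.6, 51.2 and 80.9 in iTreg DFMO. Th17n vehicle stood apart from the other 9 libraries. The change was 2.73 ± 0.25 in Th17n (edgeR adjusted p = 4.6e-10), and the log2 difference in iTreg was 0.37 ± 0.18 (edgeR adjusted p = 0.23).

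Klf6 encodes a zinc finger transcription factor, and chr13:5666331-5666946 lies 195 kb from it. This peak held 3.92, 4.62 and 2.35 CPM in Th17n vehicle, 18.2, 17.3 and 22.1 in Th17n DFMO, 25.1, 21.7 and 14.8 in iTreg vehicle and 25.8, 23.2 and 30.2 in iTreg DFMO. Th17n vehicle was again the only low group, and the change in Th17n was 2.35 ± 0.34 (edgeR adjusted p = 6.5e-06). A second peak between Ptger4 and Dab2, chr15:6129736-6130409, behaved otherwise in iTreg. It rose in Th17n from 2.94, 5.08 and 3.23 CPM to 27.6, 16.4 and 20.8 CPM (2.42 ± 0.40, edgeR adjusted p = 6.3e-05), while iTreg vehicle held 12.3, 3.22 and 6.06 CPM and iTreg DFMO 4.70, 2.37 and 3.81 CPM.

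Among the distal peaks that fell in Th17n, chr10:96373283-96373680 lies 243 kb from Btg1, an antiproliferative gene. It held 32.3, 24.2 and 20.8 CPM with vehicle and 7.80, 7.79 and 6.51 CPM with DFMO, without overlap (-1.71 ± 0.31, edgeR adjusted p = 0.00025). In iTreg it held 15.9, 21.5 and 19.4 CPM with vehicle and 14.7, 9.96 and 8.5 CPM with DFMO, and its log2 difference of -0.82 ± 0.29 did not pass (edgeR adjusted p = 0.069). Ets1 encodes a lymphoid transcription factor, and chr9:32926029-32926599 lies 168 kb from it in the lncRNA Gm27162. It fell from 43.1, 18.3 and 18.2 CPM to 7.15, 6.92 and 5.21 CPM in Th17n (-1.82 ± 0.34, edgeR adjusted p = 0.00038), with animal 1 highest among the vehicle libraries. A peak between Ly86 and the zinc finger gene Rreb1, chr13:37599972-37600327, fell from 29.4, 16.2 and 13.5 CPM to 0.975, 1.73 and 5.21 CPM (-2.97 ± 0.52, edgeR adjusted p = 0.00014) and held 0.430 to 1.76 CPM in all iTreg libraries.

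In iTreg, DFMO changed 203 of the 1971 tested distal peaks (10.3%, against 8.56% of all tested peaks). It raised 127 and lowered 76, where 3.84% of all tested peaks rose and 4.72% fell. Over all tested peaks more fell than rose, and over the distal peaks more rose than fell. The peaks on contigs contributed 16 of the 127, which leaves 111 on placed chromosomes. Without iTreg vehicle animal 2, 67 rose and 41 fell, without iTreg vehicle animal 3, 69 and 26, and without iTreg DFMO animal 3, 61 and 22. The count of peaks that fell was 39 without iTreg DFMO animal 1 and 119 without iTreg DFMO animal 2.

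The contig JH584304 stood out among the peaks that rose. Of its 24 peaks, all tested, 14 rose in iTreg with DFMO (58.3%) and 0 fell, with a median log2 change of 0.91, while in Th17n 0 rose and 1 fell. The summed level of the 24 peaks was 1079, 905 and 991 CPM in iTreg vehicle and 1945, 1390 and 1446 CPM in iTreg DFMO. In Th17n it was 1506, 1139 and 1473 CPM with vehicle and 1298, 1408 and 1546 CPM with DFMO. The iTreg vehicle libraries were the lowest of the 12. The strongest distal peak of all, chrUn_JH584304:58722-61337, went from 719, 602 and 614 CPM to 964, 839 and 855 CPM in iTreg (0.48 ± 0.08, edgeR adjusted p = 0.0001). Another, chrUn_JH584304:26317-27253, went from 40.4, 46.0 and 48.7 CPM to 124, 91.6 and 99.6 CPM (1.22 ± 0.14, edgeR adjusted p = 2e-07), with 82.4 to 112 CPM in all 6 Th17n libraries. How reads that match more than 1 place were counted is not given in the sources used here.

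On placed chromosomes, chr16:93152880-93153457 lies 327 kb from Runx1, which encodes a transcription factor of T cell development and regulatory T cells. It rose in iTreg from 37.3, 17.4 and 21 CPM to 68.7, 49.8 and 80.0 CPM without overlap (a log2 change of 1.5 ± 0.24, edgeR adjusted p = 3.5e-05), and Th17n held 17.6, 15.5 and 8.81 CPM with vehicle and 16.2, 25.5 and 28.6 with DFMO. In the Igh locus, chr12:113692026-113692502 rose from 1.02, 2.36 and 1.21 CPM to 10.6, 9.96 and 13.8 CPM (2.82 ± 0.44, edgeR adjusted p = 2.9e-05). Of the 27 Igh peaks tested, 4 rose and 0 fell in iTreg (14.8%), with a median log2 difference of 0.64. In Th17n 3 rose and 0 fell (11.1%), with a median of -0.06. All tested peaks gave 8.56% in iTreg and 8.78% in Th17n, and all tested distal peaks gave 10.3% and 12.2%. The Th17n share at Igh thus lay below that of the distal peaks. The Igh locus encodes antibodies in B cells, and the B cell markers with peaks (Pax5 only) summed to 30.7 to 50.3 CPM in iTreg vehicle and 30.8 to 38.0 CPM in iTreg DFMO. Their part in the Igh peaks was not tested.

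The distal peak most surely lowered in iTreg was chr8:34671416-34673126, 134 kb from Dusp4, a phosphatase that turns off MAP kinases. It held 59.8, 73.1 and 85.9 CPM in iTreg vehicle and 24.7, 37.5 and 28.4 CPM in iTreg DFMO. In Th17n it held 78.4, 83.7 and 69.3 CPM with vehicle and 80.3, 78.7 and 97.0 CPM with DFMO. The iTreg DFMO libraries were the only low ones (-1.27 ± 0.17, edgeR adjusted p = 2.3e-06), and the log2 difference in Th17n was 0.16 ± 0.15 (edgeR adjusted p = 0.6). Between Id2 and Rnf144a, chr12:26059144-26059593 fell in iTreg from 19.4, 17.0 and 21.2 CPM to 5.87, 9.96 and 5.28 CPM (-1.45 ± 0.30, edgeR adjusted p = 0.0011), with 24.1 to 37.2 CPM in the 6 Th17n libraries.

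The DFMO contrasts of the lineages use different libraries, so their calls can be set against each other. Both called 40 distal peaks, which is 16.6% of the calls in Th17n and 19.7% of the calls in iTreg. Over all tested peaks, 787 were called in both, or 20.5% and 21% of the calls, so the shares at distal peaks lay near or below the background. Of the 40, 26 rose in both, 12 fell in both and 2 moved in opposite directions. The animals are the same in both lineages.

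Among the peaks that rose in both, chr1:137669841-137670466 lies 392 kb from Ptprc, which encodes the leukocyte phosphatase CD45. It held 11.8, 11.9 and 4.99 CPM in Th17n vehicle and 36.7, 32.9 and 33.2 CPM in Th17n DFMO. In iTreg it held 4.09, 2.36 and 5.86 CPM with vehicle and 14.1, 19 and 23.7 CPM with DFMO. The groups did not overlap in either lineage, and the change was 1.89 ± 0.31 in Th17n (edgeR adjusted p = 5.7e-05) and 2.24 ± 0.35 in iTreg (edgeR adjusted p = 2.8e-05). A peak 415 kb from Hs6st1, a heparan sulfate sulfotransferase gene (chr1:35653276-35653755), rose in iTreg from 8.18, 4.73 and 5.86 CPM to 28.8, 25.6 and 29.9 CPM (2.25 ± 0.31, edgeR adjusted p = 4.8e-06). In Th17n it went from 6.86, 6.31 and 5.87 CPM to 14.6, 11.7 and 24.7 CPM (1.42 ± 0.34, edgeR adjusted p = 0.0047), a call lost without Th17n DFMO animal 3 (edgeR adjusted p = 0.071).

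Among those that fell in both, chr15:62568957-62569844 lies 579 kb from Myc, which encodes the growth regulator MYC, in the gene desert before Gsdmc. It held 24.5, 28.9 and 27.6 CPM in Th17n vehicle and 6.17, 7.79 and 8.46 CPM in Th17n DFMO. In iTreg it held 10.7, 10.7 and 9.91 CPM with vehicle and 1.17, 0.949 and 2.05 CPM with DFMO. Th17n was above iTreg under both treatments, and DFMO libraries were below vehicle libraries in both lineages (-1.87 ± 0.32, edgeR adjusted p = 9e-05, in Th17n and -2.74 ± 0.44, edgeR adjusted p = 3.9e-05, in iTreg).

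The peak chr5:53409604-53410095 lies 146 kb from Rbpj, in the group of 10 neighbouring peaks described above. It held 59.7, 61.7 and 47.3 CPM in Th17n vehicle, 21.1, 26 and 21.5 in Th17n DFMO, 19.4, 24.5 and 31.9 in iTreg vehicle and 8.80, 7.12 and 8.5 in iTreg DFMO. It fell without overlap in both lineages (-1.27 ± 0.22, edgeR adjusted p = 0.00014, in Th17n and -1.64 ± 0.26, edgeR adjusted p = 4.4e-05, in iTreg).

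**Figure D3:**
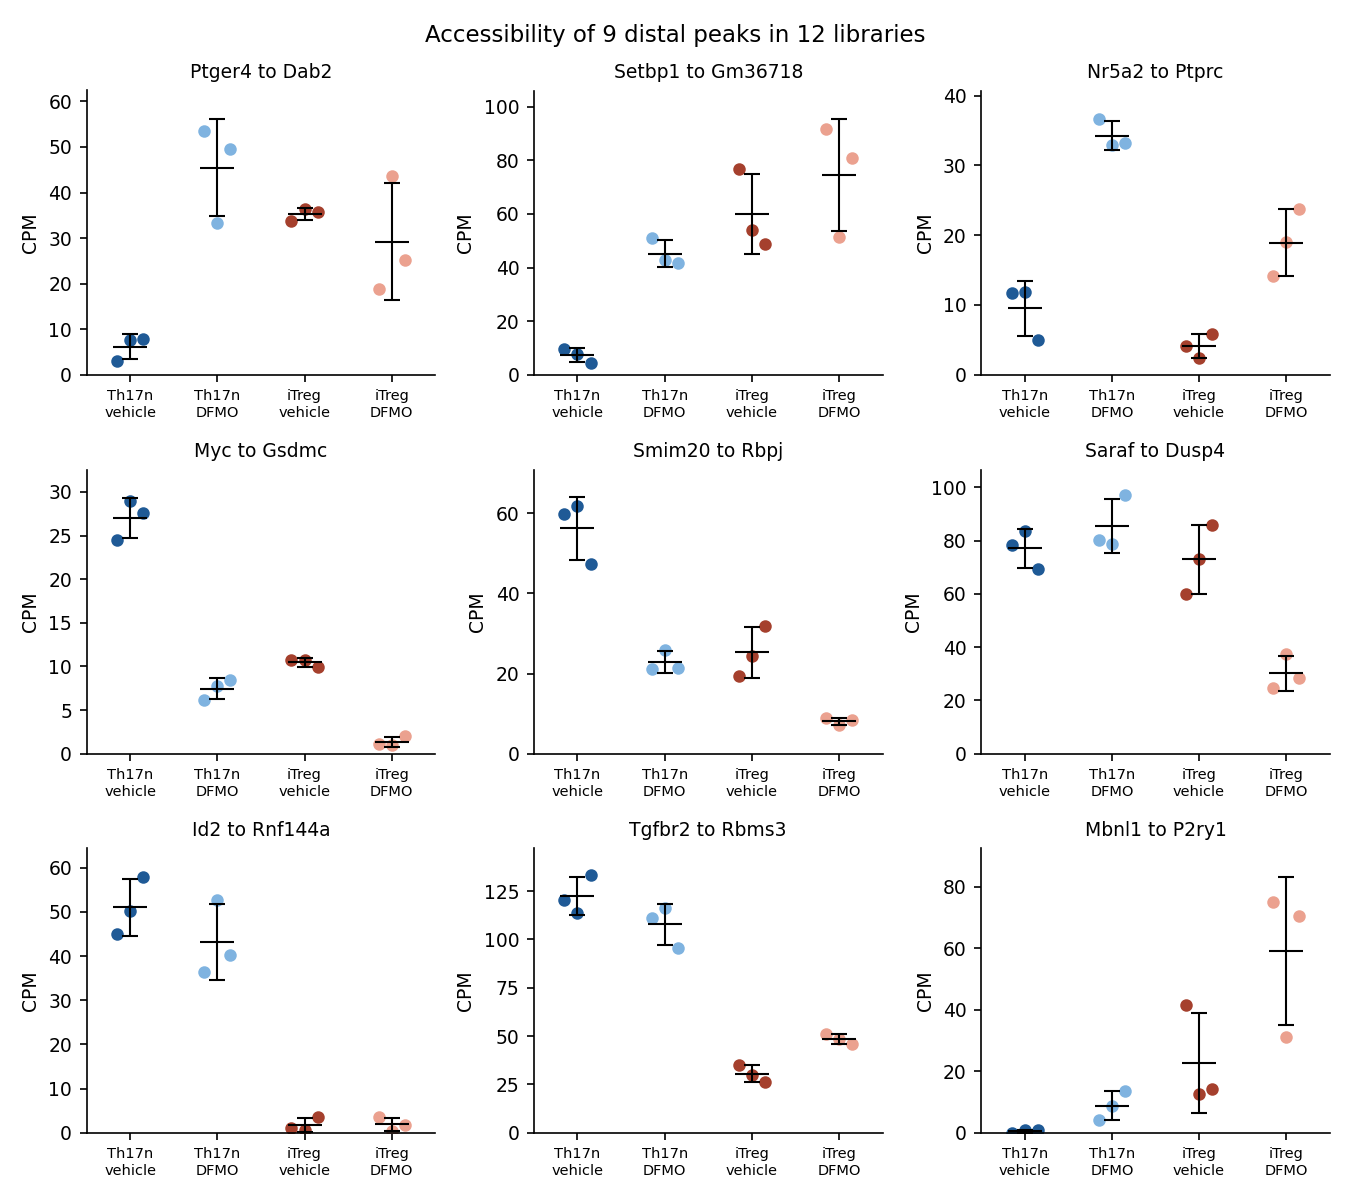
CPM of 9 distal peaks in each of the 12 libraries, with the mean ± SD of 3 libraries per group. Each panel is named by the protein-coding genes on both sides of the peak and has its own axis from 0. The peaks near Ptger4 and Setbp1 were low in Th17n vehicle only, the peak near Dusp4 was low in iTreg DFMO only, and those near Myc and Rbpj fell in both lineages.

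The interaction, which subtracts the DFMO effect of iTreg from the one of Th17n, passed the test at 56 of the 1971 tested distal peaks (2.84%, against 1.31% of all tested peaks). It was above 0 at 40 and below 0 at 16, where 0.835% and 0.478% of all tested peaks were. At 47 of the 56 the DFMO effects of the lineages had opposite signs, and 3 of the 56 were called in neither lineage alone. A call on the difference itself favours opposite signs. The same count was not made over all tested peaks, so it is not a trait shown for distal peaks. The calls with the smallest adjusted p were the peak near Ptger4 (2.95 ± 0.37, edgeR adjusted p = 8.2e-06), the peak near Setbp1 (2.37 ± 0.31, edgeR adjusted p = 2.1e-05) and the peak near Dusp4 (1.42 ± 0.23, edgeR adjusted p = 0.00038), named by their positions above (chr15:5758523-5759218, chr18:79297612-79298381 and chr8:34671416-34673126). The second peak between Ptger4 and Dab2, chr15:6129736-6130409, had an interaction of 3.25 ± 0.61 (edgeR adjusted p = 0.0021). The count of calls is unstable: above and below 0 it was 14 and 6 without Th17n vehicle animal 3, 19 and 7 without Th17n DFMO animal 1, and 75 and 26 without iTreg DFMO animal 2. It was 25 and 9 without Th17n DFMO animal 3, 24 and 9 without iTreg vehicle animal 3 and 21 and 10 without iTreg DFMO animal 1. The count above 0 was 23 without Th17n vehicle animal 1, 24 without Th17n vehicle animal 2 and 18 without iTreg DFMO animal 3, and the count below 0 was 6 without iTreg vehicle animal 2.

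The pair of peaks called in opposite directions includes one 987 kb from Gata3, the Th2 master regulator that also acts in regulatory T cells (chr2:8870166-8870441). It held 10.8, 7.54 and 9.10 CPM in Th17n vehicle and 12.3, 26 and 18.9 in Th17n DFMO. In iTreg it held 6.14, 9.89 and 9.5 CPM with vehicle and 0.587, 4.74 and 1.17 with DFMO. The groups did not overlap in either lineage, with a change of 1.13 ± 0.37 in Th17n (edgeR adjusted p = 0.044) and -2.02 ± 0.48 in iTreg (edgeR adjusted p = 0.0051) and an interaction of 3.15 ± 0.61 (edgeR adjusted p = 0.0031). The Th17n call was lost with DESeq2 or without the filter, and with any of 6 libraries left out (highest edgeR adjusted p = 0.31). The iTreg call was lost without iTreg DFMO animal 3 (edgeR adjusted p = 0.089), and with libraries thinned to the lowest total the iTreg call (edgeR adjusted p = 0.2) and the interaction (edgeR adjusted p = 0.056) were both lost.

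**Figure D4:**
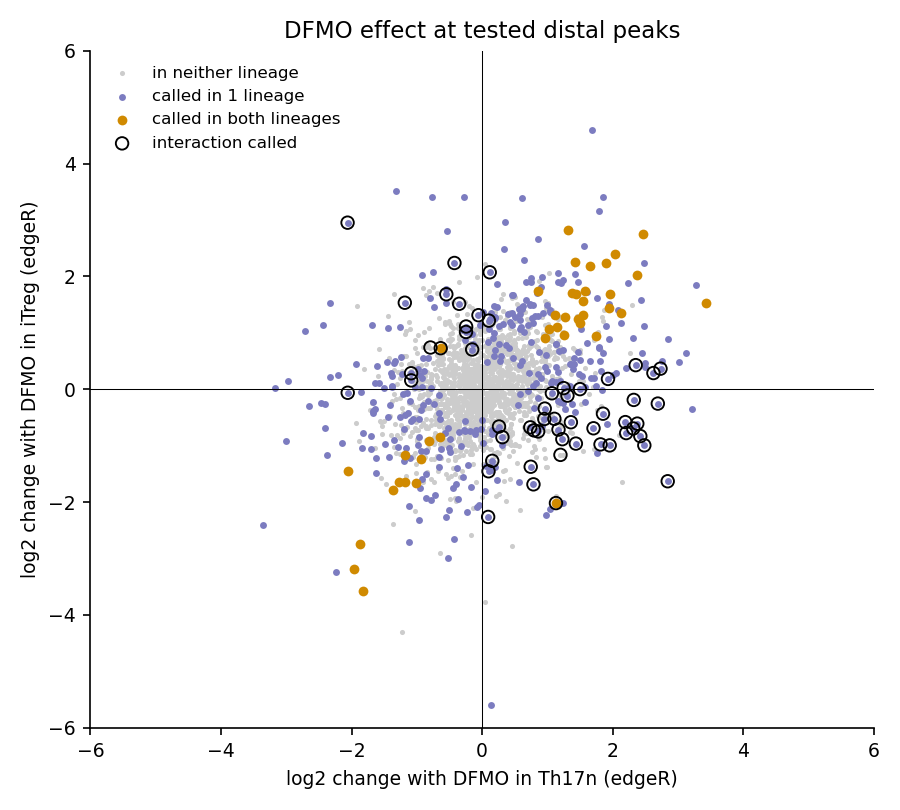
Log2 change with DFMO in Th17n (horizontal) and in iTreg (vertical) at the 1971 tested distal peaks, colored by the lineages in which edgeR called the change. Rings mark the 56 peaks called for the interaction; 40 peaks were called in both lineages, 38 of them in the same direction.

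Distal peaks were unevenly spread over the spaces between protein-coding genes. They fell in 482 such intervals, of which 75 held 10 or more and 179 held 1. The intervals described here were chosen after their values were seen, so their counts are a description. For scale, of all tested peaks 4.50% rose and 4.28% fell with DFMO in Th17n, and 3.84% rose and 4.72% fell in iTreg. In vehicle 25.2% of all tested peaks were higher and 19.3% lower in Th17n than in iTreg. The interval from Myc to Gsdmc held the most, with 62 distal peaks, 52 of them tested. With DFMO, 0 rose and 8 fell in iTreg, and 0 rose and 2 fell in Th17n. In vehicle, 20 were higher and 10 lower in Th17n than in iTreg. The Id2 to Rnf144a interval held 44, of which 43 were tested: 24 were higher and 3 lower in Th17n in vehicle. With DFMO, 1 rose and 3 fell in Th17n, near the 8.78% of all tested peaks that changed there. In iTreg 0 rose and 2 fell, where 8.56% of all tested peaks changed.

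Within the Ptger4 to Dab2 interval the peaks moved with DFMO mainly in Th17n. Of its 19 tested distal peaks 7 rose and 0 fell in Th17n, and 1 rose and 0 fell in iTreg. The summed level of all 20 was 199, 225 and 192 CPM in Th17n vehicle, 348, 322 and 327 in Th17n DFMO, 312, 290 and 328 in iTreg vehicle and 255, 360 and 273 in iTreg DFMO. Th17n vehicle was the lowest group in every animal. The interaction passed at 4 of the 19, all above 0.

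In the Smim20 to Rbpj interval, with 13 distal peaks and 12 tested, 5 fell and 0 rose in Th17n, and 5 fell and 0 rose in iTreg. The summed level fell from 448, 505 and 454 CPM to 351, 363 and 315 CPM in Th17n and from 237, 331 and 367 CPM to 159, 233 and 184 CPM in iTreg. DFMO was lower in every animal in both lineages, and in both the groups did not overlap.

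The reverse held between Prl5a1 and Sox4, which encodes an SRY-related transcription factor: of 11 tested distal peaks 4 rose and 0 fell in each lineage. The summed level was 101, 111 and 111 CPM in Th17n vehicle, 147, 161 and 169 in Th17n DFMO, 73.1, 89.4 and 87.3 in iTreg vehicle and 123, 113 and 134 in iTreg DFMO. All DFMO libraries were above all vehicle libraries. One of them, chr13:28629952-28630236, in the lncRNA 2610307P16Rik, held 2.05, 1.5 and 3.64 CPM in iTreg vehicle and 15.8, 7.59 and 15.2 CPM in iTreg DFMO (2.39 ± 0.49, edgeR adjusted p = 0.0011).

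Between Stt3b, a subunit of the oligosaccharyltransferase, and Gadl1 the summed level fell with DFMO in Th17n and rose in iTreg. Of 12 tested distal peaks 1 rose and 4 fell in Th17n with DFMO, and 3 rose and 0 fell in iTreg. The summed level was 208, 176 and 178 CPM in Th17n vehicle and 140, 151 and 115 in Th17n DFMO, and 109, 124 and 122 in iTreg vehicle and 173, 164 and 169 in iTreg DFMO. Th17n was above iTreg in vehicle in every animal and below it with DFMO. The interaction passed at 2 of the 12, both below 0.

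Other intervals, also chosen after their values were seen, are given by their counts. Of all tested peaks 4.50% rose and 4.28% fell in Th17n with DFMO, and 3.84% rose and 4.72% fell in iTreg. In vehicle 25.2% were higher and 19.3% lower in Th17n than in iTreg. Between Cd83, an activation marker, and Jarid2, a subunit of Polycomb complex PRC2, 5 of 27 tested distal peaks fell in Th17n and 3 in iTreg, and 0 rose. Between Eea1 and Btg1, 5 of 22 fell in Th17n and 1 in iTreg, and 0 rose. Between Jun, the AP-1 subunit, and Fggy, 1 of 15 rose and 4 fell in Th17n, and 0 changed in iTreg. Between Klf6 and Pitrm1, 1 of 14 rose in Th17n and 4 fell in iTreg. Between Nmbr and Cited2, a transcriptional coregulator, 11 of 15 were higher and 1 lower in Th17n than in iTreg in vehicle.

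**Figure D5:**
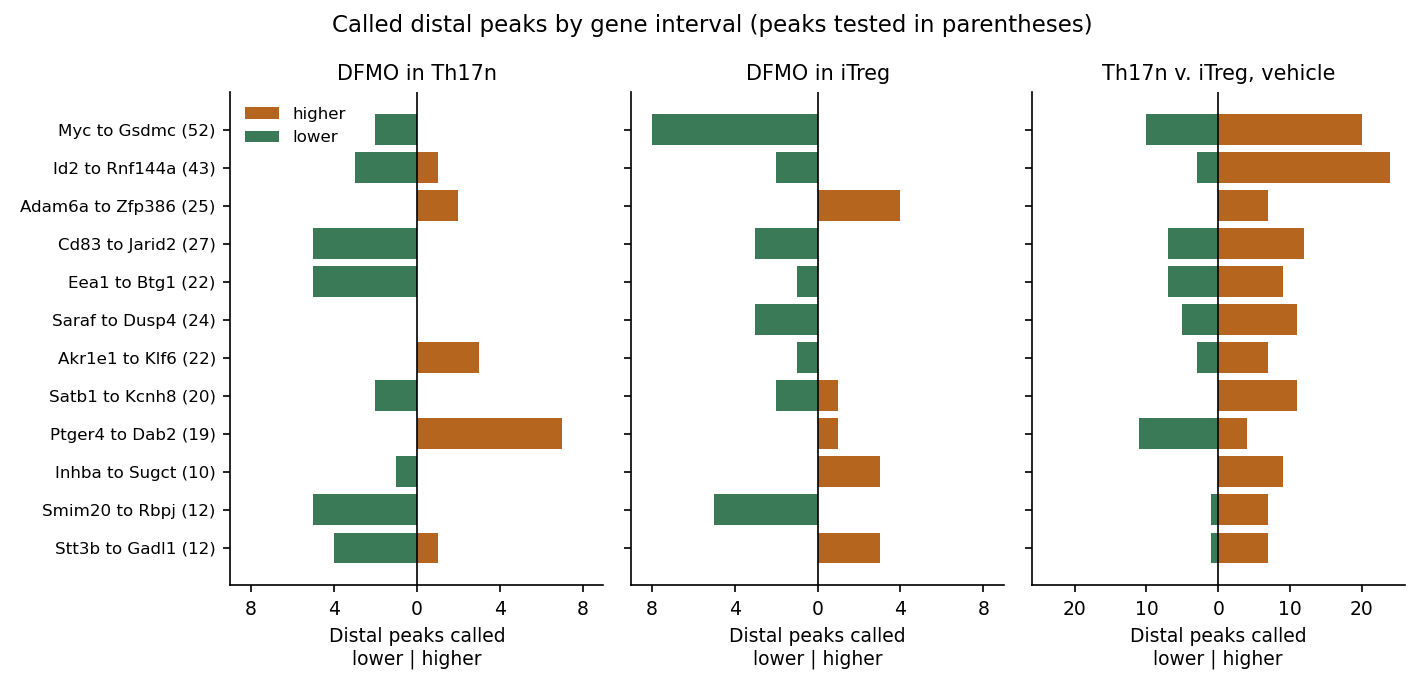
Distal peaks called higher (right of 0) or lower (left of 0) in 12 intervals named by the protein-coding genes at their ends, for DFMO in Th17n, DFMO in iTreg and Th17n against iTreg in vehicle. Each bar is a count of peaks with an edgeR adjusted p under 0.05. In the Ptger4 to Dab2 interval 7 rose in Th17n and in the Myc to Gsdmc interval 8 fell in iTreg. The intervals were chosen after their values were seen. Of all tested peaks 4.50% rose in Th17n and 4.72% fell in iTreg.

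Calls were made at every distance. With DFMO in Th17n, 75 rose and 63 fell of 1176 tested distal peaks at 100 to 200 kb, 52 and 33 of 642 at 200 to 500 kb, and 12 and 4 of 117 farther than 500 kb. In iTreg the counts were 63 and 46, 44 and 25, and 4 and 5. In vehicle, 443 were higher and 171 lower in Th17n than in iTreg at 100 to 200 kb, 266 and 108 at 200 to 500 kb, and 50 and 16 farther out. In order of distance, the calls made up 11.7%, 13.2% and 13.7% of the tested distal peaks for DFMO in Th17n. They made up 9.27%, 10.7% and 7.69% for DFMO in iTreg, and 52.2%, 58.3% and 56.4% for the lineages in vehicle. All tested distal peaks gave 12.2%, 10.3% and 53.9%, and all tested peaks gave 8.78%, 8.56% and 44.6%. Of 551 tested distal peaks in a lncRNA model, 35 rose and 32 fell with DFMO in Th17n (12.2%). In iTreg 32 of them rose and 28 fell (10.9%). The difference between these classes was not tested.

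Of the 8 distal peaks named for their level at a non-coding gene, 2 changed with DFMO, at Gm26901 and Gm19585, both in iTreg. Lncpint arises beside Mkln1 and is known as a p53-responsive transcript. Its peak chr6:31125384-31127194 held 168, 196 and 193 CPM in Th17n vehicle, 216, 172 and 161 in Th17n DFMO, 152, 148 and 142 in iTreg vehicle and 137, 152 and 166 in iTreg DFMO. The values with and without DFMO overlapped in both lineages, and neither log2 difference passed (0.00 ± 0.11, edgeR adjusted p = 1, in Th17n and 0.07 ± 0.11, edgeR adjusted p = 0.77, in iTreg). Other distal peaks at Lncpint did move. In the group of 6 at chr6:31146930-31176571, all tested, 2 rose and 0 fell with DFMO in Th17n. In iTreg 0 rose and 1 fell, and the interaction passed at 1. The summed level of this group went from 70.5, 89.9 and 90.4 CPM to 142, 115 and 144 CPM in Th17n. In iTreg it went from 120, 119 and 120 CPM to 82.8, 107 and 99.1 CPM. Pvt1 is the lncRNA next to Myc. Its peak chr15:62169126-62170323 held 57.8, 69.7 and 63.4 CPM in Th17n vehicle and 77.2, 91.8 and 93.2 in iTreg vehicle, without overlap (-0.51 ± 0.14, edgeR adjusted p = 0.0021), and it was not called with DFMO (edgeR adjusted p = 0.15 in Th17n and 0.92 in iTreg). In its group of 5 neighbouring distal peaks, 4 of them tested, 0 rose and 1 fell with DFMO in iTreg, and 0 changed in Th17n.

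At Gm26901, whose start is printed above, chr1:7397661-7398630 held 94.6, 84.0 and 65.5 CPM in iTreg vehicle and 116, 128 and 115 CPM in iTreg DFMO. In Th17n it held 84.2, 60.3 and 67.0 CPM with vehicle and 83.2, 79.2 and 82.0 CPM with DFMO. Only the iTreg groups did not overlap (0.59 ± 0.13, edgeR adjusted p = 0.0032), and that call was lost without iTreg vehicle animal 3 (edgeR adjusted p = 0.072). At Gm41331, chr15:60141521-60142128 held 53.9, 49.3 and 37.9 CPM in Th17n vehicle and 87.5, 69.4 and 86.3 CPM in iTreg vehicle. With DFMO it held 45.5, 62.7 and 54.0 CPM in Th17n and 79.2, 77.3 and 85.0 in iTreg. The lineages did not overlap under either treatment (-0.87 ± 0.15, edgeR adjusted p = 7.6e-06, in vehicle and -0.65 ± 0.16, edgeR adjusted p = 0.00091, with DFMO).

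At Gm19585, in the gene desert beyond Satb1, chr17:52162343-52163312 fell with DFMO in iTreg from 76.2, 84.3 and 87.3 CPM to 43.4, 53.6 and 56.6 CPM (-0.66 ± 0.14, edgeR adjusted p = 0.0016). In Th17n it held 82.3, 84.4 and 98.7 CPM with vehicle and 106, 103 and 105 with DFMO, so iTreg DFMO was the only low group. Its interaction of 0.92 ± 0.19 (edgeR adjusted p = 0.0067) was lost with thinned libraries (edgeR adjusted p = 0.13) and without iTreg DFMO animal 1 (edgeR adjusted p = 0.055).

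A list of 80 T cell regulators with known or likely distant elements was set beside these peaks, and 34 of the genes flank a distal peak. Their intervals held 502 distal peaks, 450 of them tested. With DFMO, 26 rose and 17 fell in Th17n (9.56%) and 22 rose and 26 fell in iTreg (10.7%), which lies near the 8.78% and 8.56% of all tested peaks. In vehicle 192 were higher and 70 lower in Th17n than in iTreg (58.2%, against 44.6% of all tested peaks). Klf6 had 36 tested peaks, of which 4 rose in Th17n and 5 fell in iTreg, and 17 were higher and 5 lower in Th17n in vehicle. Gata3 had 23, of which 2 rose in Th17n and 3 fell in iTreg.

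The limit of 100 kb is a choice. The 3 peaks just inside it, chr12:92783332-92783699, chr10:19491662-19491913 and chr13:44630465-44630710, lay 100019, 100036 and 100064 bp from Gm40892, Ifngr1 and Jarid2 and held means of 4.70, 2.44 and 3.26 CPM. The 3 just outside it, chr17:79454972-79456068, chr3:52881228-52882274 and chr11:79833801-79834126, lay 99881, 99849 and 99830 bp from Cdc42ep3, Cog6 and Utp6 and held means of 21.6, 26 and 18.1 CPM.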

How the data were processed

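ATAC-seq of 12 libraries (4 groups of 3 animals) was read as 37 bp pairs. The deposited values are raw counts of the authors, 1 whole number per mm10 peak and library; Trimmomatic, FastQC, Bowtie2 and MACS2 are named per the submitters' processing notes, and whether peaks were called on pooled samples is not given in the sources used here. All 12 count columns were used and 0 left out. Whether starts count from 0 or 1 is not stated; they are printed as deposited. Distal peaks were found against 21900 protein-coding gene models of RefSeq's GRCm38.p6 annotation. CPM is the count scaled by the library total. Counts were tested with edgeR 4.0.16 in R 4.3.3 (filterByExpr by group, TMM, glmQLFit and glmQLFTest on all 12 libraries, Benjamini-Hochberg adjustment over all peaks, threshold 0.05), checked on simulated data; ± after a log2 change is its SE. The animal number names the same animal in each group; after removal of group means, the 18 same-animal pairs correlated at -0.059 to 0.091, and a fit with the animal as a block was an alternative, beside DESeq2 1.42.0, no TMM, no filter, thinned libraries, a 200 kb limit and leaving out each library.

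The permutation test planned for the share of counts is not reported, since a share summed over chosen peaks is given as a description. Named peaks followed a rule: per contrast, up to 6 higher and 6 lower calls by adjusted p whose direction held in each of the 3 animals, 1 per 50 kb; the 5 strongest and 5 farthest; the 5 groups with most neighbours; 8 at non-coding genes; and 2 per flanking gene of the list. Intervals between genes were chosen after their values were seen. The members and lists were chosen with earlier results of these data known. P-values rest on the spread between libraries within groups, estimated over all 12 libraries together, with 3 animals per group. The main fit has no term for the animal.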

Additional observations from a re-analysis of the deposited data

Results flagged for a closer look

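Of the 56 distal peaks at which the DFMO effect differed between the lineages by the test of the difference itself (edgeR adjusted p of the interaction under 0.05), 40 lay above 0 and 16 below. The 6 in each direction with the smallest adjusted p by the rule for named peaks are given here, with log2 values that subtract the iTreg effect from the Th17n effect. The first 6 lay above 0. The peak between Ptger4 and Dab2 (chr15:5758523-5759218, 2.95) and the peak near Setbp1 (chr18:79297612-79298381, 2.37) rose in Th17n alone, and the peak near Dusp4 (chr8:34671416-34673126, 1.42) fell in iTreg alone. Near Trps1, a GATA-type repressor gene, chr15:50361494-50362402 (1.48) went from 32.3, 36 and 32.9 CPM to 57.2, 73.1 and 65.8 in Th17n and from 45.0, 35.5 and 35.0 to 20.0, 34.2 and 23.4 in iTreg. Between Slc30a5, a zinc transporter gene, and Pik3r1, chr13:101229710-101230315 (2.98) held 0, 4.0 and 2.35 CPM in Th17n vehicle and 13.6, 15.1 and 10.4 in Th17n DFMO, and this call was lost with libraries thinned to the lowest total (edgeR adjusted p = 0.096). Beyond Tbc1d1, chr5:64661982-64662785 (1.94) rose in Th17n from 8.82, 12.5 and 16.4 CPM to 34.1, 32.5 and 34.5.

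Of the 6 below 0, the contig peak chrUn_JH584304:26317-27253 (-1.11) and the peak near Tgfbr2 (chr9:116293838-116294757, -0.86) rose in iTreg alone. The interaction at the Tgfbr2 peak was lost without Th17n vehicle animal 3, Th17n DFMO animal 3 or iTreg vehicle animal 3 (highest edgeR adjusted p = 0.083). Between Stt3b and Gadl1, chr9:115561195-115561545 (-2.66) rose in iTreg from 4.6, 0.860 and 2.63 CPM to 13.5, 6.64 and 13.2, and chr9:115611690-115612655 (-1.24) fell in Th17n from 56.8, 42.3 and 44.0 CPM to 17.9, 28.1 and 18.2. Both interactions were lost with thinned libraries (edgeR adjusted p = 0.14 and 0.058). Between Ly86 and Rreb1, chr13:37671049-37671465 (-2.72) fell in Th17n from 34.3, 23.6 and 21.4 CPM to 8.12, 14.7 and 10.4 and held 0.809 to 3.80 CPM in iTreg. Its interaction was lost with thinned libraries (edgeR adjusted p = 0.31). Between Jun and Fggy, chr4:95390549-95391117 (-5.01) held 0 to 1 counts per library in iTreg vehicle, so the fitted value depends on the prior count and does not bound the size of the difference.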

How the results depend on the processing

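Of 260 calls at named peaks, 157 were kept under every alternative and with any library left out, 75 were lost under at least 1 other setting, 86 were lost with at least 1 library left out, and 0 reversed. The sequencing depth is a main limit. With every library thinned to the lowest total, the distal peaks called higher and lower were 60 and 44 for DFMO in Th17n, 47 and 25 for DFMO in iTreg, 420 and 158 for the lineages in vehicle, 415 and 115 for the lineages with DFMO, and 14 and 5 for the interaction. With a limit of 200 kb, which leaves 965 distal peaks, the counts were 65 and 38, 64 and 30, 324 and 125, 292 and 82, and 26 for the interaction above 0. DESeq2 called 50 lower in iTreg with DFMO. The lineage difference in the share of counts was 0.717 percentage points and became 0.282 with the 200 kb limit and 0.538 without counts at gene ends. As a ratio of the Th17n share to the iTreg share it was 1.32, 1.31 and 1.11 in the same order. The DFMO difference of 0.063 became 0.337 without counts at gene ends. Leaving out each library in turn gave 69 to 170 higher and 42 to 120 lower for DFMO in Th17n, 61 to 138 and 22 to 119 for DFMO in iTreg, 651 to 827 and 236 to 328 for the lineages in vehicle, 568 to 758 and 183 to 247 for the lineages with DFMO, and 14 to 75 and 6 to 26 for the interaction. The share differences ran from 0.684 to 0.745 and from 0.029 to 0.091.

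With the animal as a replicate block, the counts were 139 and 90, 118 and 75, 755 and 291, 709 and 224, and 46 and 19, and no count moved by more than 1.5 times. Of the 260 named calls 6 were lost under it, none of them at a peak whose own change is described above.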
